A study of Mus musculus with 2 samples.

Results

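Genes whose mouse symbol ends in Rik carry the name of a RIKEN full-length cDNA clone in place of a name that says what the product does. In the FMRP RIP-seq table of adult mouse testis, the members were chosen by that suffix alone, and they made up 101 of the 4788 listed genes (2.11%) with 99 unique symbols. In RIP-seq (RNA immunoprecipitation sequencing), transcripts pulled down together with a protein are sequenced beside the RNA of the starting lysate. The 2 groups, both from testes of adult wild-type mice, were the input, an aliquot of the lysate kept before precipitation, and the FMRP RIP, the RNA recovered from that material with an anti-FMRP antibody on magnetic beads. Each group had 1 library, so no difference between them has a replicate check and none was tested, and no IgG library was used here. Whether several testes were pooled is not given in the sources used here.

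FMRP is an RNA-binding protein that associates with translating ribosomes and restrains the translation of the mRNAs it binds. Its loss causes fragile X syndrome, and enlarged testes are part of that condition in males and in knockout mice. Many RIKEN clones were first sequenced from adult testis libraries, which hold transcripts of meiotic cells and spermatids found in no other tissue, and such genes have often kept their clone names. A clone name says in which library a clone was sequenced and nothing of the protein.

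The values are CPM, a standard unit that scales the reads on a gene to the total reads of its library, and they are not divided by transcript length, so levels of different genes are not ranked against each other as amounts of RNA. The library totals, read from the step of the CPM values, came to 30849871 input reads and 36506932 FMRP RIP reads, which makes 1 read worth 0.0324 CPM and 0.0274 CPM. Reads on listed genes were 14.2% of the input library and 55.2% of the FMRP RIP library. All 4788 were labelled protein-coding in the table, and the authors had called all of them higher in the FMRP RIP, so the direction of every member was fixed by the table, the lowest FMRP RIP level listed was 1.08 CPM, and no gene outside it was analysed here. Of 31 marker genes of testis cells fixed for a check of the tissue, 3 were listed, *Sycp1* and *Sycp2* of the spermatocyte synaptonemal complex and *Gfra1* of spermatogonia, and none of the 5 Sertoli cell or 5 Leydig cell markers was, so a table of called genes cannot serve as that check. Input levels of the 3 were 10.5 CPM for *Sycp1*, 8.88 CPM for *Sycp2* and 1.07 CPM for *Gfra1*.

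The RIKEN genes followed the other listed genes closely in how strongly they were recovered. Enrichment was expressed as a log2 ratio, FMRP RIP over input with 1 CPM added to each, a scale that understates the change of low genes. On it, the median over the 101 members was 1.39 (quartiles 0.91 and 2.08), beside 1.35 (quartiles 0.92 and 2.0) over all listed genes. A log2 ratio above 1 was reached by 72 members (71.3%), against a background of 70.1% of all listed genes. A fold of 1.5 or more on the same scale was reached by 98 members (97.0%), against 97.3% of all listed genes. Both shares lie near their background. Cut at the quartiles of the log2 ratio of all listed genes, the 4 ranges from the lowest to the highest held 26, 22, 25 and 28 members.

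Summed over the members, reads came to 0.368% of the input and 1.57% of the FMRP RIP library, a ratio of 4.27 beside 3.89 for all listed genes. Few genes made up most of this, since the 10 members with the most FMRP RIP reads held 57.8% of the members' FMRP RIP reads. The median level of a member was 9.43 CPM in input and 48.5 CPM in RIP, where all listed genes had 9.27 CPM and 30.6 CPM. In whole testis, a low input level can come from few cells or from little RNA per cell, which cannot be told apart here. Input levels ran from 0.227 CPM to 371.0 CPM, and FMRP RIP levels from 1.15 CPM to 1615 CPM. No member was at 0 in the input, and none was at or under the floor of 3 input reads.

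**Figure D1:**
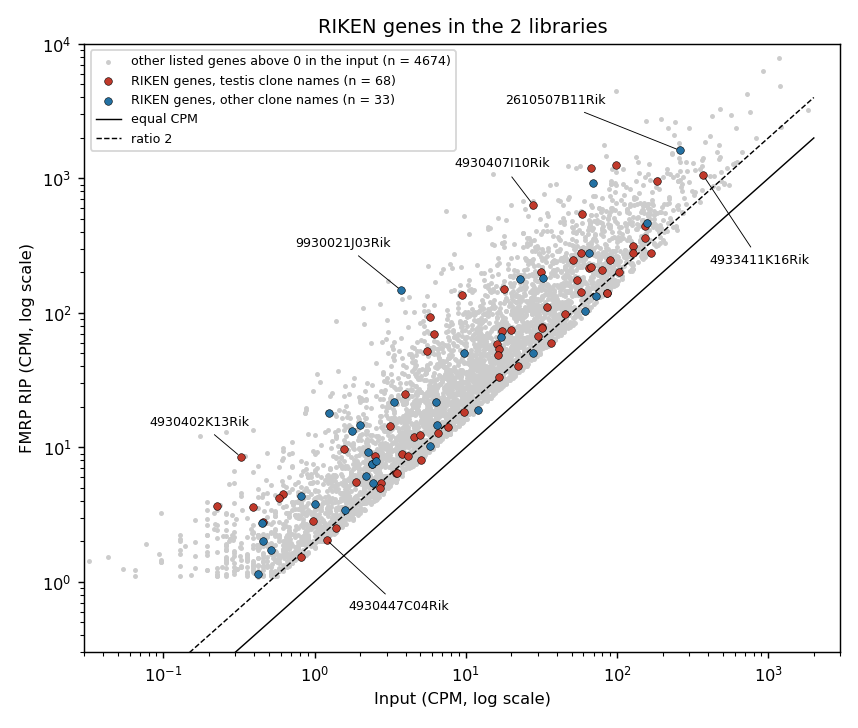
Levels of the listed genes, with input on the horizontal axis (CPM, log scale) and FMRP RIP on the vertical axis (CPM, log scale), 1 library per axis; RIKEN genes with testis clone names (red, 68) and other clone names (blue, 33) lie over the other listed genes (grey). The testis clone names run from 0.227 CPM to 371.0 CPM and the other clone names from 0.421 CPM to 260.8 CPM in the input, within the wider grey cloud, and all lie above the solid line of equal CPM, as the selection of the table requires.

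The highest ratio of FMRP RIP to input among the members belonged to *9930021J03Rik* (ENSMUSG00000046138, chromosome 19 from 29714402 to 29805989, GRCm38). It had 3.73 CPM in input and 147.4 CPM in RIP, a ratio of 39.5 with an exact 95% Clopper-Pearson interval of 32.9 to 48.0, which, like the intervals below, covers counting error alone. Its log2 ratio of 4.97 placed it at rank 10 of all listed genes. RefSeq records mKIAA2026 as a synonym, a name from a project that sequenced long human cDNAs and their mouse counterparts.

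*4930407I10Rik* (ENSMUSG00000075524, chromosome 15 from 82059151 to 82066540) was next by log2 ratio, with 27.9 CPM in input and 635.9 CPM in RIP, a ratio of 22.8 (interval 21.3 to 24.4). Its interval lies below that of *9930021J03Rik*, although far more reads stand behind it. Without the added CPM, the X-linked *4930402K13Rik*, described below, had a higher ratio of 26.3, from 10 input reads. *4932415D10Rik* (ENSMUSG00000044581, chromosome 10 from 82282116 to 82316582) had 67.6 CPM and 1187 CPM, a ratio of 17.6 (interval 16.8 to 18.4). For *4921539E11Rik* the values were 5.77 CPM and 92.7 CPM, a ratio of 16.1 (interval 13.8 to 18.8), which overlaps that of *4932415D10Rik*. *4930407I10Rik* spans 7.39 kb and *4921539E11Rik* 60.4 kb, so strong recovery was found over a wide range of gene spans.

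The other members among the 8 highest log2 ratios have names or synonyms that tell more. *4930430A15Rik*, now *A26c3* of the ANKRD26-like family, had 9.43 CPM in input and 136.4 CPM in RIP, a log2 ratio of 3.72. *C530008M17Rik*, now *Cracd*, encodes a regulator of actin dynamics that inhibits capping protein, and it had 69.5 CPM and 922.8 CPM, a log2 ratio of 3.71. *4932438A13Rik*, with the synonyms Kiaa1109 and Tweek, encodes a very large protein of the bridge-like lipid transfer family. It had 98.7 CPM in input and 1265 CPM in RIP, a log2 ratio of 3.67. *4931406P16Rik*, now *Garre1*, a granule-associated effector of Rac and RhoG, had 6.19 CPM and 69.3 CPM, a log2 ratio of 3.29. The ratio intervals of *4930430A15Rik*, *C530008M17Rik* and *4932438A13Rik* overlap, so counting error does not order these 3 genes.

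In all, 14 members matched RefSeq through a synonym and carry a newer symbol there. Of these, 10 (71.4%) had a log2 ratio above 1, near the 70.1% of all listed genes, with a median of 1.41 for the 14. They hold both members of one gene pair, *Cracd* above and its relative *Cracdl* (*2010300C02Rik*), which had 2.17 CPM in input and 6.08 CPM in RIP, a ratio of 2.80 (interval 2.12 to 3.74). The interval of *Cracdl* lies far below the 12.7 to 13.9 of *Cracd*. The ankyrin repeat relatives *A26c3* and *Potegl* (*4931423N10Rik*) differed likewise, with a ratio of 14.5 (interval 12.9 to 16.3) for the first and 1.97 (interval 1.66 to 2.33) for the second.

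Among the other renamed genes, *Clec2m* (*4922502D21Rik*), a C-type lectin family member, had 182.3 CPM in input and 960.0 CPM in RIP, a log2 ratio of 2.39. *Cfap20dc* (*4930452B06Rik*), which encodes a protein with the domain of the ciliary protein CFAP20, had 3.14 CPM and 14.4 CPM, a log2 ratio of 1.89. *Elapor1* (*5330417C22Rik*), a membrane protein of endosomes and lysosomes, had 157.8 CPM and 463.5 CPM, a log2 ratio of 1.55. *Fem1al* (*4931440F15Rik*), *Dennd11* (*E330009J07Rik*) and *Ms4a20* (*1700017D01Rik*) followed at log2 ratios of 1.51, 1.32 and 1.11. The lowest of the set were *Acsbg3* (*1700061G19Rik*), of the acyl-CoA synthetase bubblegum family, at 0.96, *Potegl* at 0.88, *Ppp1r14bl* (*4933415F23Rik*), which resembles an inhibitor of protein phosphatase 1, at 0.72, and *Mtres1* (*1700021F05Rik*), a mitochondrial transcription rescue factor, at 0.69. The renamed genes therefore spread over nearly the whole range of the members, from rank 104 to rank 4359 of the listed genes.

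**Figure D2:**
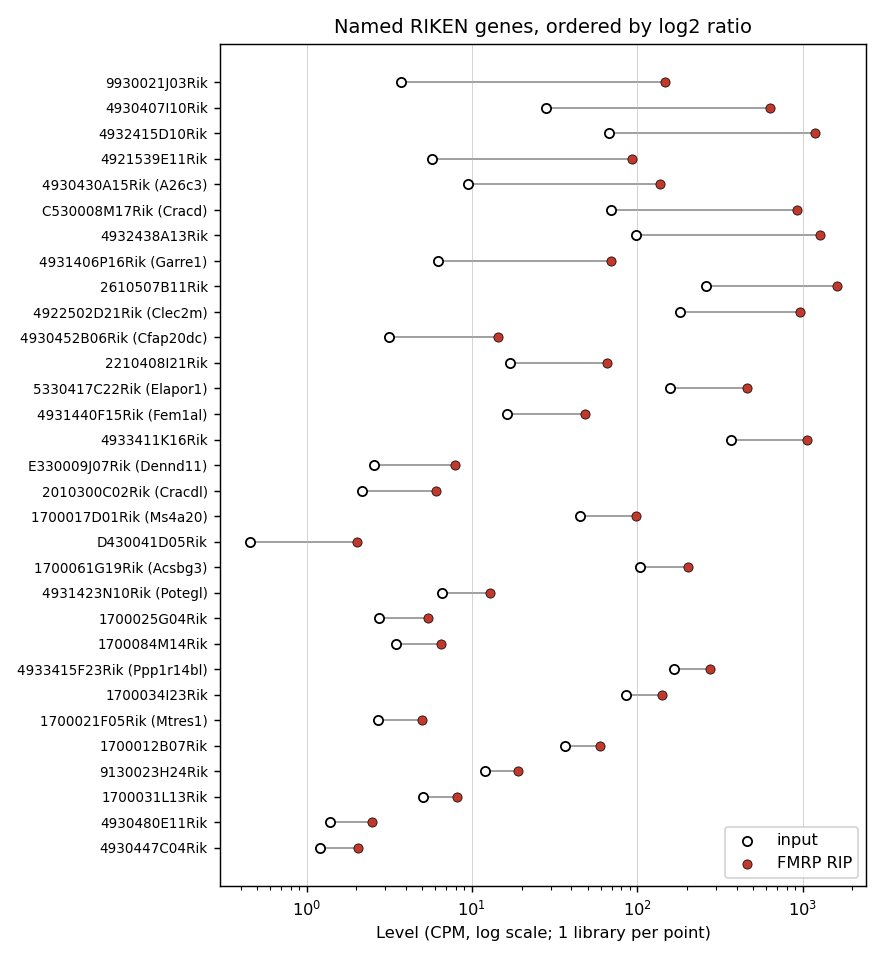
Input (open points) and FMRP RIP (filled points) level in CPM on a log scale, 1 library each, of the RIKEN genes picked by the fixed rule, ordered from the highest log2 ratio at the top; newer RefSeq symbols stand in brackets. The gap between the points is the ratio without the added 1 CPM, 39.5 for 9930021J03Rik at the top and 1.71 for 4930447C04Rik at the bottom. It does not shrink at every row, and 9130023H24Rik, above the bottom row, has 1.59. Genes of high and low level are found at both ends.

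Several members still listed under clone names have RefSeq synonyms of known cilium and meiosis proteins. They are named here after their values were seen. *2700049A03Rik*, or Talpid3, a centrosomal protein needed to form primary cilia, had 22.9 CPM in input and 179.1 CPM in RIP, a log2 ratio of 2.91. *D430042O09Rik* (Kiaa0556), a katanin-interacting protein at the base of cilia, had 65.2 CPM and 279.2 CPM, a log2 ratio of 2.08. *4933427D14Rik* (Kiaa0753), a centriolar satellite protein, had 16.1 CPM and 58.6 CPM, a log2 ratio of 1.81. As they were picked by hand, their values describe these 3 genes and no group of cilium or centrosome genes.

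A meiosis gene, also singled out by its synonym, had the lowest log2 ratio of the members. *4930447C04Rik*, with the synonym Six6os1, encodes a central element protein of the synaptonemal complex, the structure that holds paired chromosomes together in spermatocytes. It had 1.20 CPM in input and 2.05 CPM in RIP, and its log2 ratio of 0.47 was the lowest of all members, at rank 4774 of the listed genes. The ratio of 1.71 (interval 1.14 to 2.61) rests on 37 input reads. Without the added CPM this gene was not the lowest, since *9130023H24Rik* had the lowest ratio of a member, 1.59. The synaptonemal complex genes *Sycp2* and *Sycp1* had log2 ratios of 3.59 and 1.11.

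The members with the most input reads were recovered at ratios from 1.65 to 6.19. *2610507B11Rik* (Kiaa0100), of the same lipid transfer family as Kiaa1109, had 260.8 CPM in input and 1615 CPM in RIP, the highest FMRP RIP level of any member. Its ratio of 6.19 (interval 6.05 to 6.34) lies below the 12.8 (interval 12.4 to 13.3) of *4932438A13Rik*, so the relatives Kiaa0100 and Kiaa1109 differed by more than counting error. *4933411K16Rik* (ENSMUSG00000090369, chromosome 19 from 42052248 to 42053627) had the highest input level, 371.0 CPM against 1056 CPM in RIP, a ratio of 2.85 (interval 2.79 to 2.91). *4933415F23Rik* (*Ppp1r14bl*) was the least recovered of the 5, with 167.6 CPM and 276.8 CPM.

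The 8 rows lowest in log2 ratio, with at least 100 reads over both libraries, held *4930447C04Rik* and *1700021F05Rik*, described above, and 5 more genes. *4930480E11Rik* on chromosome X had 1.39 CPM in input and 2.49 CPM in RIP, a log2 ratio of 0.55. *1700031L13Rik* had 5.02 CPM and 8.11 CPM, at 0.60, and *9130023H24Rik* had 12.0 CPM and 19.1 CPM, at 0.63. *1700012B07Rik* had 36.8 CPM and 59.4 CPM, at 0.68, and *1700034I23Rik* had 85.7 CPM and 140.7 CPM, at 0.71. Low recovery was thus found from about 1 CPM to over 80 CPM in the input. The lower limit of the ratio interval was above 1 for each of the 101 members, with 1.14 as the lowest, but the table held no gene with a CPM ratio under 1.59.

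The prefix of the listed symbol divides the members into 68 with names of adult testis libraries, such as *4930407I10Rik* or *1700012B07Rik*, and 33 with other clone names. Some of the 33 also have a RefSeq synonym with a testis prefix, such as 4930529A19Rik for *C530008M17Rik* and 4930482J15Rik for *2410141K09Rik*. The split thus rests on the listed name alone. The median input level was 16.6 CPM for the testis clone names and 3.34 CPM for the others. In the FMRP RIP the medians were 63.3 CPM and 14.7 CPM. The median log2 ratio was 1.42 for the testis clone names and 1.36 for the others, and 48 (70.6%) and 24 (72.7%) genes lay above 1, both near the 70.1% of all listed genes. The order of these 2 medians turned without a pseudocount, to 1.54 for the testis clone names and 1.91 for the others. It also turned with the 1 CPM pseudocount when both libraries had to reach 1 CPM, to 1.35 and 1.59.

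The table could also be read against the reference. RefSeq (GRCm38.p6) has 421 protein-coding genes whose symbol still ends in Rik, and 76 of them were listed (18.1%), beside 4671 of all 21896 protein-coding genes (21.3%). Of the 192 testis clone names in the reference 51 were listed (26.6%), and of the 229 other clone names 25 (10.9%). Gene span is the distance from the first to the last base of a gene, introns included. The testis clone names were listed more often in 3 of 4 classes of span: 15.6% against 3.28% under 5 kb, 18.5% against 6.98% from 5 to under 20 kb, and 45.8% against 14.7% from 20 to under 100 kb. At 100 kb or more, 2 of 4 and 7 of 14 were listed, the same share. These are counts of genes with no test, and expression in testis, which a gene needs in order to be listed, was not matched.

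**Figure D3:**
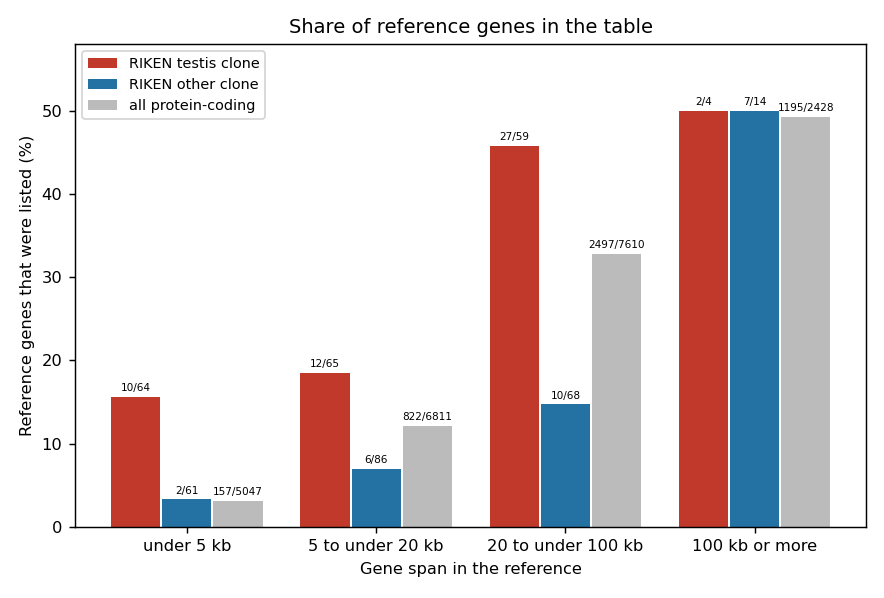
Percentage of RefSeq protein-coding genes that appear in the table (vertical axis, from 0), by class of gene span, for RIKEN genes with testis clone names (red), RIKEN genes with other clone names (blue) and all protein-coding genes (grey); the numbers over the bars are listed genes over reference genes. The red bars are above the blue ones in the 3 shorter classes, 45.8% against 14.7% at 20 to under 100 kb, and all 3 bars lie near 50% in the longest class.

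By the listed positions, RIKEN genes had a median span of 23.6 kb against 47.5 kb over all listed genes, and 23 of 101 (22.8%) spanned under 5 kb against 3.68% of all. Short spans were also found among the listed genes with a Gm number, whose median was 18.8 kb, with 16.2% under 5 kb. The median log2 ratio was 1.29 for the 23 members under 5 kb and 1.25 for the 23 members from 5 to under 20 kb. It was 1.55 for the 43 members from 20 to under 100 kb and 1.99 for the 12 members of 100 kb or more. Over all listed genes the same classes had 1.26, 1.18, 1.36 and 1.52. Across the 101 members the log2 ratio and the span had a Spearman rho of 0.23, which was 0.14 over the 89 members under 100 kb, and these genes share both libraries and are not replicates. The relation was thus weaker without the 12 longest genes, within which rho was -0.31. It was also weaker, at 0.12, over the 86 members without a KIAA synonym, and 0.59 over the 15 with one. Over all 4788 listed genes rho was 0.16, and over all listed genes of 100 kb or more it was -0.08.

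The longest member, *2210408I21Rik*, spans 478.2 kb on chromosome 13 and had 17.1 CPM in input and 65.8 CPM in RIP, a log2 ratio of 1.89. *D430041D05Rik* (267.9 kb) had 0.454 CPM and 2.03 CPM, at 1.06, and *1700025G04Rik* (237.7 kb) had 2.76 CPM and 5.45 CPM, at 0.78. These 3 longest members thus lay below the 1.99 of their class, in which 11 of 12 (91.7%) had a log2 ratio above 1, beside 74.7% of all listed genes of that span. Of the 12 members of 100 kb or more, 6 had a KIAA synonym, with a median log2 ratio of 2.65, and the other 6 had 1.52. The KIAA synonym, a grouping made after the values were seen, was carried by 15 members in all, of which 12 (80.0%, beside 70.1% of all listed genes) had a log2 ratio above 1, with a median of 2.08 against 1.34 for the 86 others. The 9 KIAA members under 100 kb had 1.32.

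**Figure D4:**
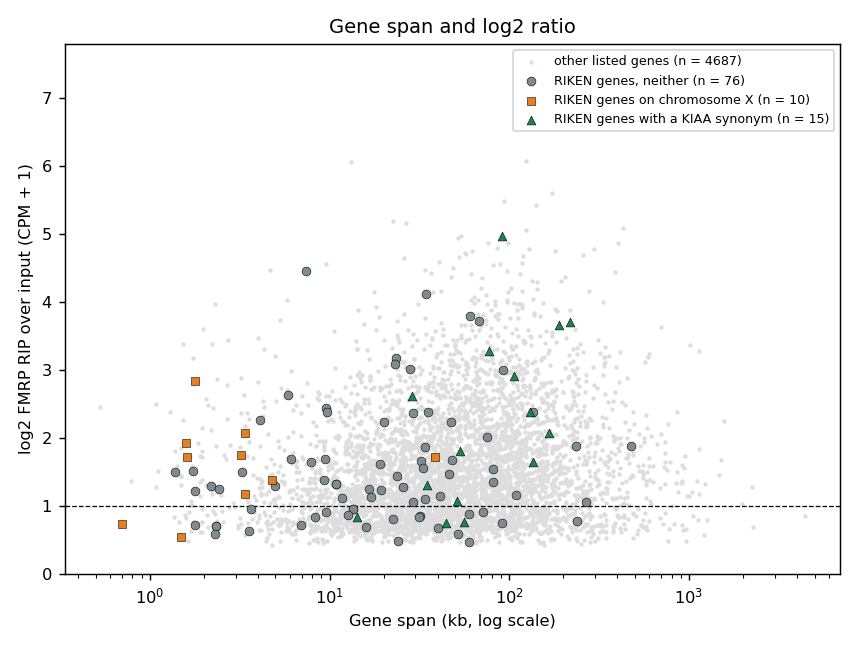
Gene span in kb (horizontal axis, log scale) and log2 FMRP RIP over input with 1 CPM added to each (vertical axis) for RIKEN genes on chromosome X (orange squares), with a KIAA synonym (green triangles), the other RIKEN genes (dark circles) and the other listed genes (light grey); the dashed line marks a log2 ratio of 1. Most X-linked members lie at the short end, 9 of 10 under 5 kb by the listed positions, and the triangles lie to the right, up to a log2 ratio of 4.97. RefSeq gives longer spans for 4933403O08Rik (77.9 kb, listed 4.80 kb) and 4932411N23Rik (21.5 kb, listed 3.41 kb), and close ones for the other X-linked members.

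Members lay on 20 chromosomes, and 10 of them on X (9.90%), against 2.90% of all listed genes and 13.3% of the 105 listed genes with a Gm number. All 10 had testis clone names and were low in the input, from 0.227 CPM to 3.49 CPM. Their median input level was 0.600 CPM. The 129 other listed genes on X were also low, with a median of 1.49 CPM beside 9.27 CPM over all listed genes. The highest ratio of the 10 members on X was 26.3, for *4930402K13Rik* (ENSMUSG00000045797, chromosome X from 9104562 to 9106342). This gene had 0.324 CPM in input and 8.52 CPM in RIP, and its wide interval of 14.1 to 55.3 rests on 10 input reads. *4933436I01Rik* had 0.227 CPM, or 7 reads, and 3.67 CPM, a ratio of 16.2 (interval 7.64 to 41.0). *4933400A11Rik* had 1.56 CPM and 9.78 CPM, a ratio of 6.28 (interval 4.64 to 8.68). These 3 genes were named for this group after their values were seen.

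The median log2 ratio of the 10 X-linked members was 1.72, against 1.36 for the 91 others and 1.03 for the 129 other listed genes on X. With 5 CPM added instead of 1, the X-linked members had 0.70 and the 91 others 1.20, so the order of these 2 medians turned. Without a pseudocount they had 2.75 and 1.62. The other listed genes on X above 0 in the input had 0.50 with 5 CPM and 1.48 without a pseudocount. Both values lie below those of the X-linked members. Of the 10, 6 were under 1 CPM in the input, and no listed gene was under 1.08 CPM in the FMRP RIP. A gene that low in the input thus needed a ratio above 1 to be listed. Of all 548 listed genes under 1 CPM in the input, 274 had a log2 ratio above 1, against 70.1% of all listed genes. Whether this limit raised the ratios of the X-linked members was not tested. At the low end of the X-linked members, *1700084M14Rik*, the shortest member at 0.702 kb, had 3.49 CPM and 6.46 CPM, a ratio of 1.85 (interval 1.46 to 2.34).

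Some values may hold reads of other genes. Of the 101 members, 23 (22.8%) had a value that was not a whole number of reads in at least 1 library, within 0.001 read, as had 26.8% of all listed genes and 74.3% of the 105 listed genes with a Gm number. *4932415D10Rik*, among the 8 highest log2 ratios, and *D430042O09Rik*, described above, were among the 23. Likewise, 2 symbols, *B430306N03Rik* and *1700034I23Rik*, stood in the table with 2 rows each, 1 on a chromosome and 1 on an alternate scaffold, with equal values in both rows, and reads shared by the 2 copies cannot be told apart. The span of 9 members overlapped that of another listed gene, 4 on the same strand and 5 on the opposite one. Those on the same strand included *4933427D14Rik*, which overlaps *Gm43951* and had no whole read numbers, and *4931440F15Rik*, which overlaps *Eml6*. *4933411K16Rik*, the member highest in the input, overlaps *Hoga1* on the same strand, but *Hoga1* had 5.19 CPM in input and 16.8 CPM in RIP, far below the member. Whether the counting used strand is not given in the sources used here.

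The label of a protein-coding gene did not hold for all members in RefSeq. Of the 99 rows with a match there, 92 were protein-coding and 7 were not. The long noncoding RNAs among these were *A630089N07Rik* (log2 ratio 1.36), *A630010A05Rik* (0.91) and *1700031L13Rik* (0.60). The transcribed pseudogenes were *1700123L14Rik*, *1700084M14Rik*, *4921511C20Rik* and *4933400A11Rik*. *1700123L14Rik*, which RefSeq links to the nucleoporin gene Nup50 by synonym, had 153.4 CPM in input and 440.1 CPM in RIP, and the X-linked *4921511C20Rik* had 0.389 CPM and 3.59 CPM. The median log2 ratio of these 7 was 1.36, and that of the 92 was 1.39.

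The RIKEN genes were also set beside 2 other groups of listed genes chosen by symbol. The median input level was 9.43 CPM for RIKEN genes, 1.14 CPM for the listed genes with a Gm number and 23.7 CPM for the 53 with a Fam name. These CPM are not divided by transcript length, so they do not rank the groups by amount of RNA. Median log2 ratios were 1.27 for the Gm genes and 1.30 for the Fam genes, beside 1.39 for the RIKEN genes. These are descriptions of 2 libraries, and none of the differences was tested.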

How the data were processed

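The authors deposited 1 table with CPM values for the input and the FMRP RIP library, beside columns of their own edgeR comparison (fold changes, p-values and calls), which were not used. STAR and the builds GRCm38 and mm10 are named in the submitters' processing notes. The counting tool is not given in the sources used here. The authors' CPM values are whole multiples of 0.01 read, which gave the library totals. Only 78.4% of input values above 0 and 78.8% of FMRP RIP values were whole reads, so no count test was run, and the values were not tested between conditions.

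Log2 ratios were computed after adding a pseudocount of 1 CPM. Exact Clopper-Pearson intervals (95%) came from reads rounded to whole numbers. PCR reads are not independent molecules, so intervals and the floor of 3 reads cover counting error only. Members were symbols ending in Rik, matched to RefSeq (GRCm38.p6) by symbol (85) or a single synonym (14), with 2 unmatched, and 97 of the matched rows overlapped the RefSeq position. Named genes were the 8 highest and 8 lowest log2 ratios among members with at least 100 reads over both libraries, the 5 highest input levels, the 3 longest and 3 shortest spans, and renamed genes. Members and lists were chosen with earlier results of these data known. Functions were tested on simulated data. The planned coding and protein lengths were not analysed here. Scripts ran in Python 3.11.15 with pandas 2.3.3 and numpy 2.4.6, intervals came from scipy 1.17.1, and plots were drawn with matplotlib 3.10.9.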

Additional observations from a re-analysis of the deposited data

How the results depend on the processing

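The count of RIKEN genes with a log2 ratio above 1, which was 72, was 52 when 5 CPM were added to each value and 101 with the FMRP RIP scaled so that reads outside the listed genes had equal totals, and the count at 1.5-fold, which was 98, was 81 with 5 CPM added and 101 with the scaling, all within 1.5 times. Among the 78 members with whole reads, 75 reached it. The shares of all listed genes at these settings are not given here, so these counts do not set RIKEN genes apart from the others. The median log2 ratio of the members, 1.39, was 1.05 with 5 CPM, 1.60 with about 0.12 CPM, 1.65 with no pseudocount and 2.33 with that scaling, which multiplies each FMRP RIP value by 1.92. For testis clone names the median was 1.17 with 5 CPM and 2.33 with the scaling. For other clone names it was 0.78 with 5 CPM, 1.79 with about 0.12 CPM, 1.91 with none and 2.18 with the scaling. These shifts follow from the construction of each alternative. A minimum of 1 CPM in both libraries, 1 row per symbol, RefSeq protein-coding rows and whole-read rows, the last chosen after seeing the data, moved the members' median by less than the counting interval. Of 159 values of named genes under the alternatives, 47 moved by more than their counting interval, 31 of them with the scaling. No alternative run here could turn a direction. Adding the same CPM to both values keeps their order, and the scaling used raised the FMRP RIP values. The remaining alternatives only left out rows of a table that holds genes called higher alone. No paired analysis was possible because input and FMRP RIP had 1 library each. Depth limits the members low in the input: 69 of 101 had at least 100 input reads.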
